A study of Drosophila melanogaster with 2 samples.

Results

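The genes described here encode the subunits of the proteasome of Drosophila melanogaster, and what was measured is the presence of tagged Atonal at their starts. Members were chosen by symbol alone, as protein-coding genes named Rpn or Rpt with a number, or Prosalpha or Prosbeta, which gave 48 of the 13968 protein-coding genes of the dm6 annotation. Of these, 32 are the general subunit genes (7 Prosalpha, 7 Prosbeta, 6 Rpt and 12 Rpn). The other 16 are paralogs, whose symbols carry an R or a T after the name of the subunit. Atonal, encoded by ato, is a transcription factor of the basic helix-loop-helix (bHLH) family and selects the precursors of stretch receptors and of photoreceptors. It was mapped by chromatin immunoprecipitation and sequencing (ChIP-seq) in 2 biological replicates of 1 group. The embryos of this group came from flies with an ato-eGFP transgene, were taken whole at 0 to 18 h of age, and were not compared with another genotype, treatment or stage. Sonicated chromatin, in fragments of 200 to 800 bp, was pulled down through the GFP tag. Whole embryos average over every cell type and stage in that window, and the sources used here do not state which regulatory sequence drives the fusion. A control was not analysed here.

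The proteasome degrades proteins tagged with ubiquitin, and all cells need it. Its 20S core is a barrel in which rings of alpha subunits gate the entry and rings of beta subunits hold the proteolytic sites, while the 19S cap recognises ubiquitin (non-ATPase Rpn subunits), unfolds the substrate and feeds it into the core (ATPase Rpt subunits). In the fly many core and cap subunits have a second gene copy, and several of these copies, the T genes among them, are expressed in the testis. Proteasome genes are known to be transcribed together, and in the fly the factor cnc with its partner maf-S raises them when proteasome activity is low. Promoters of widely expressed fly genes often hold the DNA replication-related element (DRE), which the factor Dref binds. The sites of bHLH dimers are E-boxes.

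The sequences just before the starts of some general genes and paralogs are shown as examples of the contrast that follows. In each, read 5′ to 3′ on the gene's strand up to the base before its most upstream annotated start, capitals mark every E-box (CANNTG), every DRE (TATCGATA) and every DRE core (ATCGAT). Sequence is from the RefSeq dm6 assembly and starts are from Ensembl release 115. Prosbeta2 (chr3L:14999831-14999950, plus strand) and Prosbeta2R1 (chrX:5808834-5808953, plus strand) encode the general and a second form of a catalytic subunit. Prosbeta2R1 has a DRE core farther upstream (offset -199 from the start), outside the printed stretch. Prosbeta2R2, the paralog with the highest signal, is not printed. Prosalpha6 (chr2L:10221231-10221350, plus strand) and Prosalpha6T (chr2L:13231919-13232038, plus strand) form a pair of the alpha ring. Rpt6 (chrX:21315932-21316051, plus strand) with Rpt6R (chr3R:30583698-30583817, minus strand) is a pair of the ATPases. Rpn12 (chr3L:16582908-16583027, plus strand) with Rpn12R (chr3L:15042571-15042690, minus strand) is a pair of the lid of the cap. Rpn2 (chr3R:29153404-29153523, plus strand) has a DRE core on each side of its summit, Rpn10 (chr3L:21536880-21536999, plus strand) has a strong peak with no DRE, and Prosbeta6 (chr3L:16610419-16610538, minus strand) has a DRE and no peak.
Prosbeta2: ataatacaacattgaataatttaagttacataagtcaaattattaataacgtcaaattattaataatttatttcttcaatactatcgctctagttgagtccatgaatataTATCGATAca
Prosbeta2R1: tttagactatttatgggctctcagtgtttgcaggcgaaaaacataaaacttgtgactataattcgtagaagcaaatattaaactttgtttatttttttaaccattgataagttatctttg
Prosalpha6: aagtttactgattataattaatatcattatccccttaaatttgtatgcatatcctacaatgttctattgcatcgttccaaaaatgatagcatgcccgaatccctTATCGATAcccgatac
Prosalpha6T: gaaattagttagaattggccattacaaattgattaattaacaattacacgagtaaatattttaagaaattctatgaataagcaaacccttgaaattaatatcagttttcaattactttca
Rpt6: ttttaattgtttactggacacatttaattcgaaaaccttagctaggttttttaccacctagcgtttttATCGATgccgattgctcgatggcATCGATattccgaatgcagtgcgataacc
Rpt6R: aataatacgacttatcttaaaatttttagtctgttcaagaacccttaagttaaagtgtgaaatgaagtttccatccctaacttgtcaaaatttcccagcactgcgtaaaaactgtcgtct
Rpn12: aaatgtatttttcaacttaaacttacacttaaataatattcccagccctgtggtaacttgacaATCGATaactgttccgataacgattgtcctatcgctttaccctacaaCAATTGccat
Rpn12R: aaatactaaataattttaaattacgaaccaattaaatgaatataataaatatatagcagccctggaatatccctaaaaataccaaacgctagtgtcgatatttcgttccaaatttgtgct
Rpn2: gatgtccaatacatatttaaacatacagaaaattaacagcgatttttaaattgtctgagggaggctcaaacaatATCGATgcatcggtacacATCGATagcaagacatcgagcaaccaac
Rpn10: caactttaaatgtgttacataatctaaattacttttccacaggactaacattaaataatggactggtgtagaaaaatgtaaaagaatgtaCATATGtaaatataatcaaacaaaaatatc
Prosbeta6: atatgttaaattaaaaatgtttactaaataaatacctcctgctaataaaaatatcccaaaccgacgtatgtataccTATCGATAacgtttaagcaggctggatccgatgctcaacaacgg

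Peaks of tagged Atonal were found at general subunit genes and at none of the paralogs. A gene was counted where the summit of a peak lay within 500 bp of any of its annotated starts. In the conservative list, where a peak has to recur in rank between the replicates at a low irreproducible discovery rate (IDR), 19 of 32 general genes had a peak (59.4%), against 21.7% of all protein-coding genes (3034 of 13968). Of the 16 paralogs, 0 had a peak. The counts come from 1 group of embryos, so no test over samples applies, and the genes are not replicates.

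The same order was seen in the strongest ranked signal within 500 bp of a start, taken for genes with and without a peak. This value is the authors' own, and since the sources used here do not state its scale, it serves only to order peaks inside a list. Across the 31 general genes with a row in the list that pairs the replicates, it ranged from 26.3 to 480.2, with a median of 77.5 and quartiles of 41.2 and 121.0. Across the 13 paralogs with a row it ranged from 12.5 to 50.9, with a median of 21.4 and quartiles of 17.5 and 30.6. Across 12520 protein-coding genes with a row the median was 35.4. The median general gene was above 81.8% of all these genes (percentile 81.8), and the median paralog was at percentile 21.0. With summits within 250 or 1000 bp the median paralog was at percentile 30.4 or 33.3. Among genes without a conservative peak the medians were 38.0 for the 12 general genes with a row, 21.4 for the 13 paralogs and 28.9 for 9486 protein-coding genes. The ranges overlap between 26.3 and 50.9, where the weaker general genes and the strongest paralogs lie together. Each of the 13 paralogs had a lower value than its general counterpart.

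**Figure D1:**
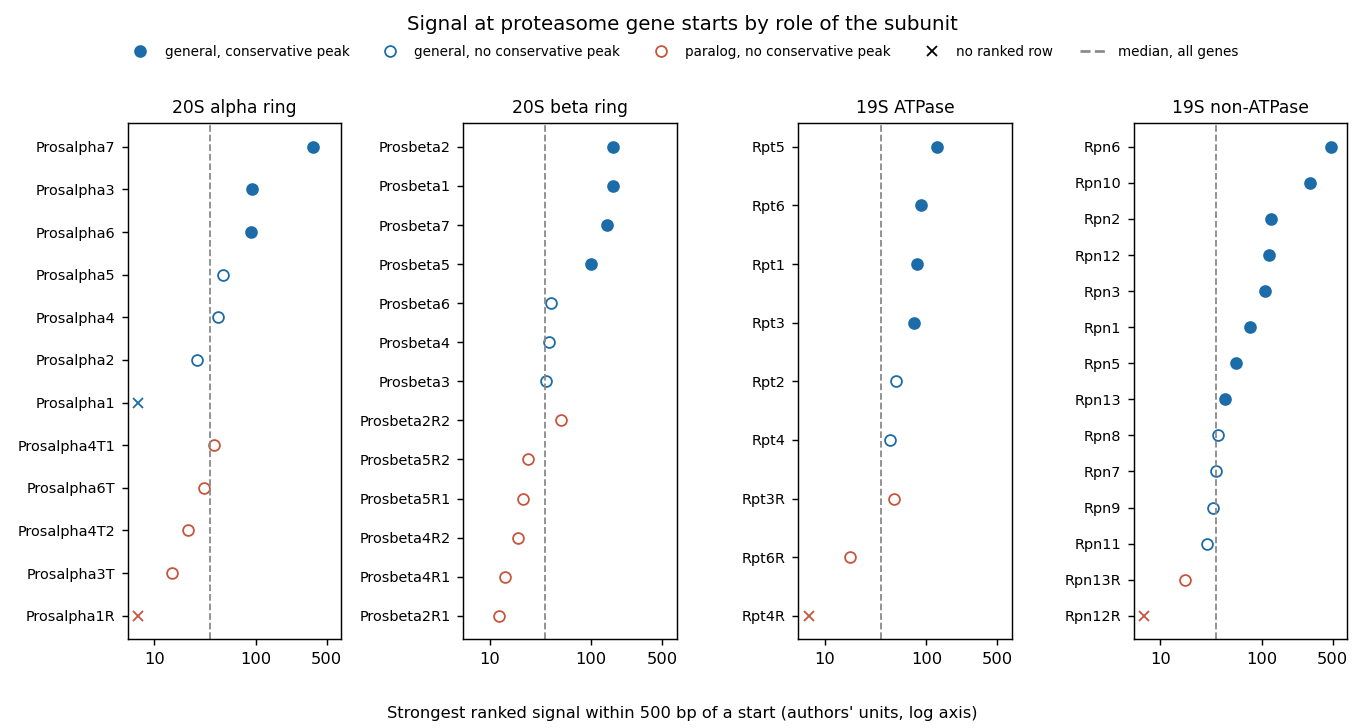
Strongest ranked signal within 500 bp of a start (authors' units, log axis) for each proteasome gene, by role of the subunit, with general genes in blue, paralogs in red, filled points for a conservative peak and crosses for genes with no ranked row, which have no value. Filled points reach 480.2 at Rpn6, no paralog is filled, and the dashed line is the median of all genes, 35.4.

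**Figure D2:**
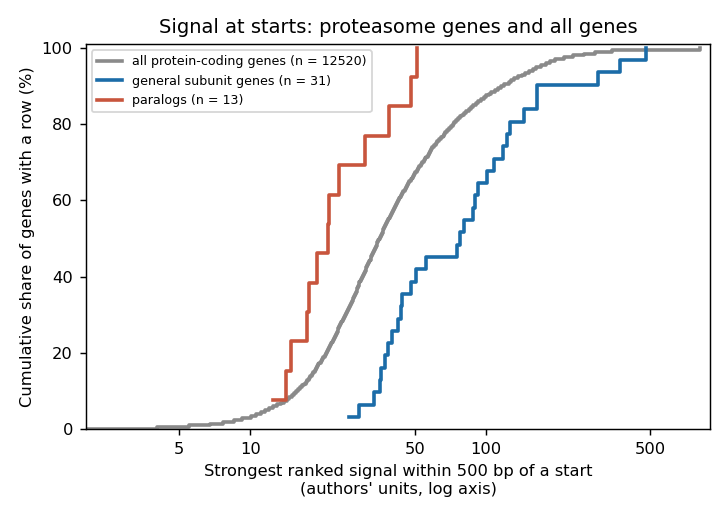
Cumulative share (%) of genes against the strongest ranked signal within 500 bp of a start (authors' units, log axis), for 31 general genes, 13 paralogs and 12520 protein-coding genes with a row. The curve of the general genes lies to the right of that of all genes, with a median of 77.5 against 35.4, and that of the paralogs lies to the left, with a median of 21.4.

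In the alpha ring of the core 3 of 7 general genes had a peak. Prosalpha7 (FBgn0023175) had the strongest of them, at chr2R:9847766-9847966, with a signal of 370.3, rank 36 of 3009, and a summit 42 bp upstream of the start in intergenic sequence. In the lists of the replicates alone its signals were 201.0 and 172.7, so it was strong in both. Prosalpha3 followed with 92.6 (50.5 in replicate 1 and 41.7 in replicate 2) and Prosalpha6 with 90.0 (48.6 and 41.6). These lay in the upper part of the range of all genes, at percentiles 85.9 and 85.3. Without a peak were Prosalpha5 (48.0), Prosalpha4 (42.4) and Prosalpha2 (26.3), the lowest of all general genes with a row. Prosalpha1 had no row in any list.

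Prosalpha1 and Prosalpha1R differ from all other members in their sequence. They lie near each other on chr2R on the same strand, at chr2R:7827303-7828678 and chr2R:7830413-7831771, and their proteins of 244 residues are 100% identical. Of the 952 words of 50 bases within 500 bp of the start, 952 occur again on the chromosome arms for Prosalpha1 and 952 for Prosalpha1R. The next members were Rpn3 with 6.93% and Prosalpha3 with 3.26% of such words, and the remaining members had 0. Between these genes and around them the ranked list had a gap of 6569 bp without a summit, where the arm had a row per 848 bp on average. The sources used here do not state how reads that match more than 1 place were treated, so the lack of a row does not tell whether the factor was there. Without these genes, 19 of 31 general genes and 0 of 15 paralogs had a peak.

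In the beta ring 4 of 7 general genes had a peak, and these include each of the catalytic subunits. Prosbeta1, Prosbeta2 and Prosbeta5 carry the caspase-like, trypsin-like and chymotrypsin-like sites. Prosbeta1 and Prosbeta2 had the same combined signal of 165.7, with 83.8 and 78.6 in the replicates at Prosbeta1 and 87.4 and 74.3 at Prosbeta2. Prosbeta5 had 100.8, with 60.9 and 43.5. Prosbeta7, a subunit without a proteolytic site, had 145.1, with 80.6 and 66.7. In all 4 genes replicate 1 had the higher value, and each was in the thresholded list of each replicate alone. By percentile within each ranked list, however, Prosbeta1 was higher in replicate 2 (94.6) than in replicate 1 (93.8). The other beta genes, Prosbeta6 (40.1), Prosbeta4 (38.5) and Prosbeta3 (36.0), stood between percentiles 51.0 and 57.0 and were close to the median gene. In the replicates Prosbeta6 had 26.8 and 17.3, Prosbeta4 had 23.3 and 16.7 and Prosbeta3 had 13.0 and 28.4, so Prosbeta3 alone was higher in replicate 2.

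Of the 6 ATPase genes of the cap, 4 had a peak. Rpt5 led with 126.5 (62.9 and 65.6 in the replicates), then came Rpt6 with 88.6 (36.5 and 59.6), Rpt1 with 81.1 (38.9 and 39.7) and Rpt3 with 75.6 (51.5 and 28.5). These ATPases form the ring that unfolds substrates. Only Rpt5 among them was in the thresholded lists of both replicates, Rpt6 was in that of replicate 2, Rpt3 in that of replicate 1, and Rpt1 in neither. Rpt2 had 50.4 and Rpt4 44.3, without a conservative peak. At Rpt2 the value in replicate 2 (28.5) was higher than in replicate 1 (15.1), and it was in the thresholded list of replicate 2.

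The non-ATPase genes of the cap held the strongest and some of the weakest peaks, at 8 of 12 genes. Rpn6, whose protein clamps the lid of the cap to the core, had the strongest peak of all members, with a signal of 480.2, rank 7 of 3009, at chr2R:14752233-14752486. Its replicates gave 244.3 and 236.1. The summit lay 89 bp upstream of the nearer of its 2 starts, in an intron of its longer transcript, and with the most upstream start alone Rpn6 had no peak within 500 bp. Rpn10 (FBgn0015283), a ubiquitin receptor, came next with 298.8, rank 84, at chr3L:21536921-21537106, with 125.4 and 175.2 in the replicates. Both genes were thus near the top in each replicate, at percentiles from 97.8 to 99.9.

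The remaining non-ATPase peaks were of middle and low strength. Rpn2, a scaffold of the cap that carries Rpn13, had 123.6 with 42.9 in replicate 1 and 81.4 in replicate 2. The lid subunits Rpn12 and Rpn3 had 118.5 (77.2 and 43.1) and 108.1 (65.4 and 42.7). Rpn2 and Rpn12 thus differed between the replicates in opposite directions. Rpn1, which binds ubiquitin and shuttle factors in yeast, had 77.5 (37.7 and 29.4), the lid subunit Rpn5 had 56.0 (35.1 and 27.0) and the ubiquitin receptor Rpn13 had 43.5 (18.7 and 30.8). These weak peaks were in the thresholded list of neither replicate alone. Rpn11, the deubiquitinase of the cap, had no peak and a signal of 28.9 (17.2 and 24.2). Its partner Rpn8 had 37.4, and the lid subunits Rpn7 and Rpn9 had 35.6 and 33.5.

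The threshold ran through these weaker genes by reproducible rank and not by signal. Just inside the IDR of 0.01 were Rpn5 at 0.00929, Rpn13 at 0.00631 and Rpn1 at 0.00544. Just outside were Prosalpha5 at 0.0116, the paralog Prosbeta2R2 at 0.0179 and the paralog Prosalpha4T1 at 0.0566. Prosalpha5 had a higher signal (48.0) than Rpn13 (43.5), and so did Prosbeta2R2 (50.9). For the distance of 500 bp, the peaks nearest to the limit were those of Rpn13 at 437 bp inside the gene, Rpn5 (offset -354) and Rpt3 (offset -343), and with 1000 bp the count was again 19. For Rpn13, 2 peaks were within 500 bp, and the values are those of the stronger.

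The replicates gave a like order of the genes but different numbers past the threshold. In the thresholded list of replicate 1 alone 15 of 32 general genes had a peak (46.9%, all genes 18.5%), and in that of replicate 2 alone 13 did (40.6%, all genes 14.0%). Both lists held 10 of 32 (31.2%, all genes 11.8%), namely Rpn3, Rpn6, Rpn10, Rpn12, Rpt5, Prosalpha7 and the beta genes Prosbeta1, Prosbeta2, Prosbeta5 and Prosbeta7. The conservative peaks of Rpt1, Rpn1, Rpn5 and Rpn13 were in neither. Genes in a replicate's list without a conservative peak were Rpt2 in replicate 2, and Prosalpha5 and Rpn8 in replicate 1. The listed peak of Rpn8 was weak, with a signal of 5.2, below its strongest ranked signal of 24.8 in that replicate. Those of Rpt2 and Prosalpha5 had 28.5 and 41.5. In the thresholded list of the pooled replicates 18 general genes had a peak, with Rpt2 added and Rpn1 and Rpn13 missing. Of the paralogs, Rpt3R alone had a peak in a replicate's list, that of replicate 1. Across the 30 general genes with a row in each ranked list, Spearman's rho between the strongest signals of the replicates was 0.85, and across 10744 protein-coding genes it was 0.74. The genes of a replicate share its library, so this is a description across genes. The ratio of replicate 1 to replicate 2 had a median of 1.1 among the general genes, with a range of 0.46 to 1.81. Across the 10744 protein-coding genes its median was 1.02. The scale of the signal is not stated, so these ratios only describe the lists.

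**Figure D3:**
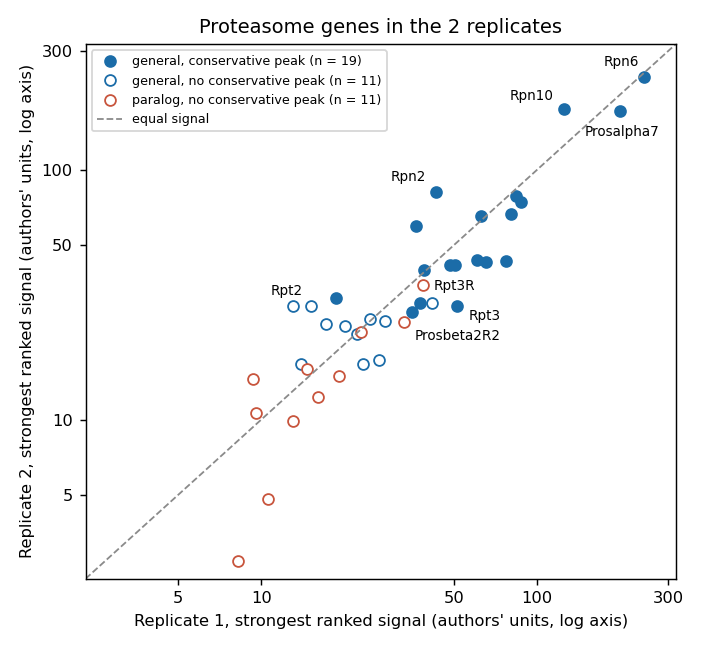
Strongest ranked signal within 500 bp of a start in replicate 1 (x axis) and replicate 2 (y axis), both in the authors' units on log axes, for proteasome genes with a row in each replicate's list, with general genes in blue, paralogs in red and filled points for a conservative peak. Rpn6, Prosalpha7 and Rpn10 are at the top right in both replicates, and the ratio of replicate 1 to replicate 2 at the general genes runs from 0.46 to 1.81 around the dashed line of equal signal.

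Most paralogs had a low signal, and none had a conservative peak, whatever the role of the subunit. The highest were Prosbeta2R2 with 50.9 (32.9 and 24.5 in the replicates), Rpt3R with 48.0 (38.7 and 34.6) and Prosalpha4T1 with 38.7 (23.0 and 22.5). They stood at percentiles 68.0, 65.5 and 55.1, above the median of all genes. Prosalpha6T had 30.6, Prosbeta5R2 had 23.8 and Prosalpha4T2 had 21.6, and the other 7 with a row were between 12.5 and 21.4. No row was found within 500 bp of Rpt4R, Rpn12R and Prosalpha1R in the list that pairs the replicates. Among all protein-coding genes, 1448 of 13968 had none. Pairs with similar proteins still differed in signal. Rpt6R is 88.9% identical to Rpt6 and had 17.8 against 88.6, and Rpt3R is 82.0% identical to Rpt3 and had 48.0 against 75.6. The protein identities over all 16 pairs ran from 37.5% (Rpn13R) to 100% (Prosalpha1R), with a median of 60.4%.

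Summits lay close to the starts of the genes. Of the 19 strongest peaks, 14 (73.7%) had a summit within 60 bp of a start of the gene itself, against 56.4% of all 3034 genes with a peak. The median distance was 37 bp for the subunit genes and 51 bp for all. In the median gene the summit was upstream, at -35 bp and at -38 bp, respectively. A 5′ UTR held 6 of the summits, an intron 4 and a coding exon 1, that of Rpn13, while 8 were intergenic. The intron summits include Rpt1, which starts inside CG17985, and Rpt6, which starts inside CG1801. The signal of the peaks was like that of other genes with a peak, with a median of 108.1 against 100.5. In the strongest 10% of the list were 3 of 19 (15.8%), against 12.3% of all genes with a peak.

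**Figure D4:**
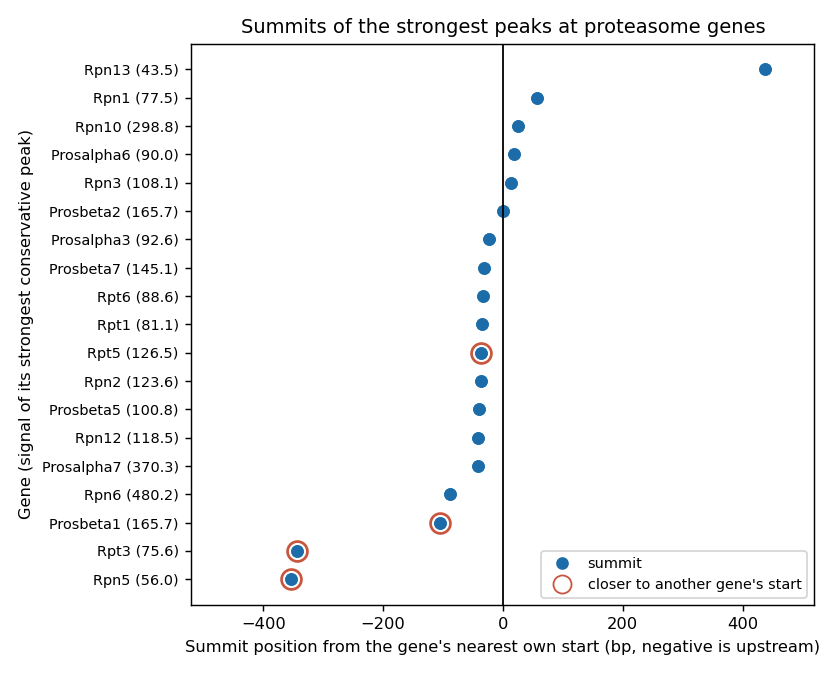
Position of the summit of the strongest conservative peak from the nearest own start (bp, negative is upstream) for the 19 general genes with a peak, each labelled with its signal in the authors' units. Summits of 14 genes are within 60 bp of the start, and the red rings mark 4 genes, Rpt3, Rpt5, Rpn5 and Prosbeta1, whose summit was closer to the start of another gene.

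Many general subunit genes have the start of another gene close by. A start of another protein-coding gene on the other strand lay within 500 bp at 21 of 32 general genes (65.6%), against a start on either strand at 3 of 16 paralogs (18.8%) and 30.8% of all genes. Within 250 bp the counts were 13 of 32 general genes (40.6%) and 2 of 16 paralogs (12.5%), against 18.3% of all genes. Examples are Rpt5 with RanBP3 at 42 bp, Prosbeta5 with dgo at 94 bp, Prosbeta1 with Rrp42 at 121 bp and Prosalpha6 with Npc1a at 135 bp. At such genes it cannot be told apart which of the neighbours a peak belongs to. The summit was nearer to the other gene at Rpt3 (CG11122), Rpt5 (RanBP3), Rpn5 (Hat1) and Prosbeta1 (Rrp42), and at 15 of 19 genes it was nearest to the member's own start. With a neighbouring start 12 of 21 general genes had a peak (57.1%, all such genes 37.0%), and without one 7 of 11 did (63.6%, all such genes 14.9%). The shares of the general genes rest on few genes, and their difference was not tested. The 7 with a peak and no neighbouring start are Rpt1, Rpt6, Rpn1, Rpn10, Rpn12, Prosalpha3 and Prosbeta7. Of the paralogs, Prosbeta2R2 (CG1116 at 129 bp) and Rpt3R (Alg12 at 19 bp), which have the highest signals, also have a neighbouring start. General genes and paralogs are alike in length, with medians of 1390 and 1282 bp, against 2164.5 bp for all genes.

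The DRE was found in a larger share of the promoters of general genes than of all genes, and in no paralog promoter. In the 300 bases from 250 before to 50 after the most upstream start, searched on both strands, TATCGATA was present at 12 of 32 general genes (37.5%), 0 of 16 paralogs and 9.36% of all protein-coding genes. With 16 paralogs, the count of 0 does not tell whether they differ from all genes, and this was not tested. The core ATCGAT, which lies within TATCGATA, was present at 17 general genes (53.1%), 1 paralog (6.25%) and 23.3% of all. The paralog is Prosbeta2R1, with the core at offset -199 from the start, outside the printed stretch. The genes with TATCGATA are the beta genes Prosbeta1, Prosbeta2 and Prosbeta6, the alpha genes Prosalpha3, Prosalpha5 and Prosalpha6, and Rpt5, Rpn3, Rpn7, Rpn9, Rpn12 and Rpn13. Of these, 8 of 12 had a peak (66.7%), and of the 20 general genes without it 11 did (55.0%). Among all genes the corresponding shares were 64.6% and 17.3%. Among general genes without the element the share with a peak was thus above that of all such genes, and among those with it the shares were close. The difference between these shares was not tested. As the sequences above show, Prosbeta2 and Prosalpha6 hold it just before the start, and Prosbeta6 holds it without a peak.

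Where the element and the peak occurred together, their distance varied. The middle of TATCGATA was 6 bp from the summit at Rpt5 and at Prosbeta2 (offset -6 for each), 12 bp at Prosbeta1 (offset -12) and 30 bp at Prosalpha6 (offset -30). It was farther at Prosalpha3 (offset -68), Rpn12 (offset -170), Rpn3 (offset -206) and Rpn13 (offset -846). Rpn13 has 2 peaks, and its offset is to the summit of the stronger, while that to the other was not measured. Within 50 bp of the summit, TATCGATA was at 5 of 19 strongest peaks (26.3%), against 21.2% of 2448 conservative peaks near protein-coding starts. The core ATCGAT was at 9 of 19 (47.4%), against 43.6%. At Rpn2 the cores lie on each side of the summit, with offsets of -6 and 12 bp, and at Rpt6 likewise, with -15 and 8 bp. Near summits the subunit genes were thus close to other promoter peaks in these elements. Rpn6, Prosalpha7 and Rpn10, the strongest, had no TATCGATA or ATCGAT in the promoter searched. For Rpn6 the region searched is at the more upstream start, away from the peak.

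E-boxes were found in somewhat smaller shares of these promoters than of all promoters, and so was a scrambled form of the motif. CANNTG was present at 71.9% of general and 68.8% of paralog promoters, against 77.2% of all. In the shorter window from 100 bases before the start the gap was wider, at 37.5% of general and 37.5% of paralog promoters, against 55.4% of all. The difference was not tested. The scrambled form CNANTG, which shares some words with CANNTG, was present at 81.2% of general and 75.0% of paralog promoters, against 90.2% of all. In the shorter window it was at 68.8%, 56.2% and 73.3%. In the longer window the scrambled form was thus lower too. In the shorter window its gap at general promoters was narrower than that of the E-box. Since the forms share words, these values do not tell whether the lower share is particular to the E-box. Within 50 bp of the summit CANNTG was at 7 of 19 peaks (36.8%), against 37.7% of the 2448. The E-box core CAGCTG was at 1 general promoter, Rpt3, 1 paralog promoter and 17.6% of all, and CATATG at 3, 1 and 7.81%. In Rpn10 the single E-box of the printed stretch is CATATG, with its middle 52 bp upstream of the summit (offset -52). A match of letters is not shown to be a binding site, and its absence from these windows says nothing of the factor.

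Other promoter elements were counted in the same windows. The core of Motif 1, GGTCACAC, bound by M1BP, was at 5 general promoters (15.6%), 0 paralog promoters and 7.69% of all. Of these 5 genes, Rpn1 alone had a peak, and among all protein-coding genes with the motif 33.1% had one. The antioxidant response element TGACNNNGC, the kind of site cnc and maf-S bind, was at 5 general promoters (15.6%), 1 paralog promoter and 8.62% of all, and GAGAGAG, bound by Trl, at 0, 2 and 5.86%. Of the 5 general genes with TGACNNNGC, 2 had a peak, Rpt6 and Rpn1 (40.0%, all genes with the motif 22.0%). With 5 genes for each motif, these shares do not tell whether peaks go with it.

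**Figure D5:**
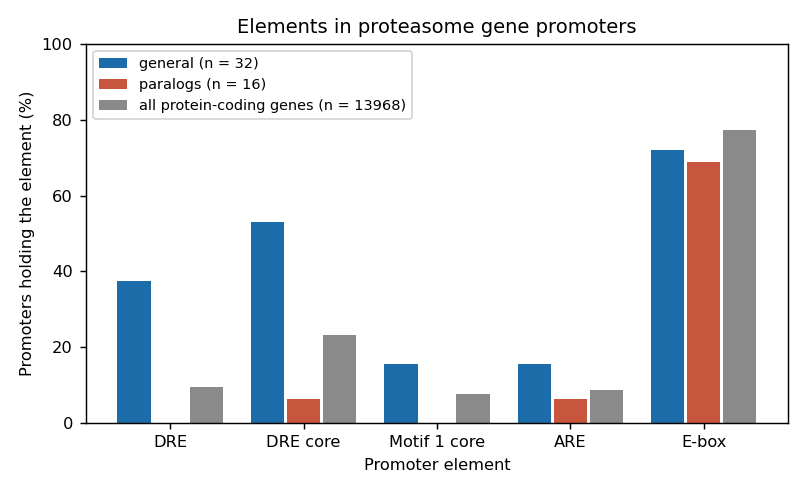
Share (%) of promoters that hold each of 5 elements, for 32 general genes, 16 paralogs and 13968 protein-coding genes, in the window from 250 bases before to 50 after the most upstream start. The DRE is at 37.5% of general promoters, 0 paralog promoters and 9.36% of all, while the E-box is at 71.9%, 68.8% and 77.2%.

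Genes that act with the proteasome had peaks too. From a list of 27 partners, 24 were found by symbol in the annotation, and 11 of them had a peak (45.8%, all genes 21.7%). The list was chosen with earlier results of these data known, so this share only describes the genes on it. Genes of the segregase that extracts ubiquitinated proteins led, with its cofactor Npl4 at 316.2 (172.0 and 146.5 in the replicates) and its ATPase TER94 at 215.5 (123.2 and 102.7). Another cofactor, p47, had 128.1 (66.9 and 61.3), below rngo, PI31 and Ubqn. The shuttle factors rngo and Ubqn had 195.5 and 149.5, with summits nearer to the starts of Cdc50 and dome. PI31, a regulator that binds the core, had 187.0 (98.1 and 89.6), and its F-box partner ntc had 68.8. Pomp, the chaperone of core assembly, had 71.6, and Uch-L5, a deubiquitinase of the cap, had 68.0. CG13319 had 99.2. Of the regulators of proteasome transcription, Keap1, which restrains cnc, had a peak of 78.6 (38.6 and 50.7). The gene cnc itself had none and a ranked signal of 57.5 (34.0 and 30.9). For maf-S there was no row in the list that pairs the replicates, and in the ranked list of replicate 2 it had 12.9. Sem1, the small subunit of the cap outside the naming rule, had 32.2 and no peak. Uba1, the enzyme that activates ubiquitin, had 24.2, and the polyubiquitin gene Ubi-p63E had 65.5, both without a peak.

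By chromosome arm, the general genes with a peak were 7 of 10 on 2R, 4 of 5 on 3L, 4 of 9 on 3R, 2 of 4 on 2L and 2 of 4 on X. Members with a peak were thus found on each of these arms. The share of all genes with a peak was not counted by arm, so these counts do not tell whether an arm stands out.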

How the data were processed

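Peak lists of 2 replicates and of their 2 combinations on dm6 were used, each with a thresholded and a ranked list. Signal was deposited by the authors for every peak, without a stated scale. The authors also deposited, in ranked lists, a -log10 value of the global IDR, which was turned back into the rate. The lists of a replicate come from its own alignment, per the labels' accompanying text. Neither aligner nor peak caller is named (not given in the sources used here). Without read counts in the lists, sequencing depth is unknown. The labels name a possible control, which was not analysed here.

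The main list was the conservative thresholded list of 3009 peaks. Summits were set against the 19630 distinct protein-coding starts of Ensembl release 115. A gene's strongest ranked signal was the highest among the 161563 rows of the list that pairs the replicates with a summit within 500 bp. A percentile is the share of genes with a lower value. Promoter sequence came from the RefSeq dm6 genome. Paralog proteins were translated from annotated coding sequences and aligned globally (BLOSUM 62, gap penalties 11 and 1). Computations used Python 3.11.15, pandas 2.3.3, numpy 2.4.6, Biopython 1.88 and matplotlib 3.10.9, tested on simulated data.

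Members, partner list and motifs were chosen with earlier results of these data known. All members are accounted for, with full values for those with a peak and those near the threshold. Of the paralogs up to 6 are named by signal, and of partners those with a peak and up to 4 others. Members beyond this rule (paralogs as pairs or without a row, Sem1 and maf-S) were named after their values were seen. Chosen after the data were seen were also the core ATCGAT, the search for repeated words, the assignment to the nearest start only, the count over ranked rows with an IDR of at most 0.01, and leaving out Prosalpha1 and Prosalpha1R. Other alternatives were distances, lists, starts, overlap in place of distance, and windows.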

Additional observations from a re-analysis of the deposited data

How the results depend on the processing

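With 19 of 32 general genes and 0 of 16 paralogs as the reference, several settings gave 15 to 19 general genes and 0 paralogs. These were the other distances, the pooled list, the most upstream or nearest start only, and overlap of the start. The others were the IDR of at most 0.01 and the omission of Prosalpha1 and Prosalpha1R. Under these settings the count of all genes moved too, between 2291 (nearest start only) and 3384 (1000 bp), from 3034. In the strongest 50% of peaks 13 general genes, 0 paralogs and 1804 of all genes had a peak. Leaving out genes with a neighbouring start gave 7 general genes of 11 and 1441 of all, by construction from fewer genes. Using each replicate alone gave 13 to 15 general genes, 0 to 1 paralogs (Rpt3R in replicate 1) and 1960 to 2580 of all genes. The percentile of the median general gene was 80.6 at 250 bp, 80.9 at 1000 bp, 83.5 with genes lacking a row set to 0, and 77.2 to 78.4 in single replicates, against 81.8. That of the median paralog was 30.4, 33.3 and 23.8 to 29.9 for the distances and single replicates, against 21.0. In a window of 100 bases before the start CANNTG was at 12 general and 6 paralog promoters, from 23 and 11, and at 7744 of all, from 10782. A neighbouring start within 250 bp was found at 13 general genes, from 21. Of the counts of the other motifs under another window or start, 35 stayed within 1.5 times and 7 were lower in the shorter window by more. The shorter window and distance hold fewer bases by construction, and for the other values the cause was not tested.

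No paired analysis was possible because the samples form 1 group. The depth of the replicates is unknown, and with 2 replicates the spread of each value is known only from their difference.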
